A study of Mus musculus with 10 samples.

Results

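The cytochrome P450 genes were followed in the back skin of C57BL/6 mice with (WT) and without (KO) a working Dlx4, a homeobox gene. All rows of the deposited gene table whose symbol starts with Cyp and a digit were taken, 105 in number. Of these, 4 pseudogene entries and 2 further entries, Cyp51 and Cyp4f39, were left out. So 99 of 24543 entries were studied, in 16 families and 39 subfamilies. The levels, sums and subfamily counts below do not cover the entries left out. Of the 99, 1 is no enzyme gene: Cyp4x1os is a transcript of the opposite strand of Cyp4x1. Whole dorsal skin was taken at postnatal day 1 (P1) from 3 Dlx4-WT and 3 Dlx4-KO mice and at postnatal day 60 (P60) from 2 of each genotype, with no treatment stated. The labels call the line only Dlx4-KO, and the sources used here do not say which part of the gene was removed or in which cells.

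Cytochrome P450 enzymes hold a heme that splits oxygen and adds an oxygen atom to a fatty molecule. Most sit in the endoplasmic reticulum and draw electrons from P450 oxidoreductase (Por), while a few sit in mitochondria and use ferredoxin. The liver enzymes of the Cyp2 and Cyp3a groups clear drugs and toxins. Other members make or break signals that skin uses, such as steroids, vitamin D, retinoic acid and oxidised fatty acids. In bulk tissue, fewer cells of a type and less RNA per cell cannot be told apart.

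Levels are RPKM, reads per kilobase of gene scaled to the alignments of the library, so they can be compared between genes. Differences were taken as log2(RPKM + 0.5), so that those of weakly expressed genes come out too small, and were tested with limma over 14026 genes. A gene entered the test if at least 2 of the 10 libraries held at least 1 RPKM, and was called at an adjusted p under 0.05 (Benjamini-Hochberg over all tested genes). The authors listed 36131011 to 74916106 alignments per library. Dlx4 stood at 2.93, 3.78 and 3.42 RPKM in WT and 1.77, 2.45 and 1.62 RPKM in KO at P1, with the KO libraries lower, and at P60 at 0 and 0.125 in WT and 0.000294 and 0 in KO, too low to check the genotype. The newborn and the adult libraries were sequenced in separate runs. All 4 P60 libraries and KO P1 replicate 2 were low in Xist (0.0477 to 0.105 RPKM), which is made by the inactive X of females, and high in the Y-linked Eif2s3y (22.3 to 26.9 RPKM at P60), and the other 5 P1 libraries were the reverse, with 34.1, 34.3 and 37.6 RPKM of Xist in WT. Age, run and, but for 1 library, sex therefore cannot be told apart. Keratinocyte, fibroblast and muscle markers were all detected in the table, while of 8 hepatocyte markers 7 stayed under 1 RPKM everywhere and albumin (Alb) reached 0.308 to 1.43 RPKM.

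Most P450 genes were at or near 0 in skin. Of the 99 entries 23 were listed at 0 in all libraries, 31 were above 0 but under 0.1 RPKM in every library, 16 peaked between 0.1 and 1 RPKM, and 1 reached 1 RPKM in 1 library only. The other 28 passed the filter, 16 of them with at least 1 RPKM in every library and 12 with 10 RPKM or more in some library. Members passed in 21 of 39 subfamilies. The 15 members of subfamily 2c, which in liver oxidise drugs and arachidonic acid, all failed, as did the 8 members of 4a, liver fatty acid hydroxylases. Of the 2d enzymes 1 of 9 passed, and of the 3a enzymes 2 of 9. In subfamily 4f, fatty acid and leukotriene hydroxylases, 5 of 8 passed.

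The members just inside the filter, by the second highest library, were Cyp4f37 (1.72 RPKM), Cyp3a57 (1.43 RPKM) and Cyp7b1 (1.38 RPKM), and those just outside were Cyp46a1 (0.819 RPKM), Cyp2r1 (0.608 RPKM) and Cyp2j12 (0.585 RPKM). Of the members 7 held values above 0 but under 0.000001 RPKM in some library, far less than any read could give, so these values are not whole reads. Cyp2a4 and Cyp2a5 held the same value in 3 libraries (0.00903, 0.0169 and 0.0187 RPKM). Levels of such close copies are uncertain, and none of these 7 passed the filter.

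Promoters of the 3 aryl hydrocarbon receptor targets read in skin are shown beside that of Cyp2e1, because the former stood lower and the latter higher in adult skin. The aryl hydrocarbon receptor binds the core GCGTG when a ligand such as dioxin is present, and TATAAA is the usual TATA box. Both were searched on both strands in the 250 bases before the start of each gene (RefSeq, GRCm38.p6), and matches are in capitals. A match describes the letters and is no evidence of binding.
Cyp1a1 (chr9:57697363-57697612, plus strand): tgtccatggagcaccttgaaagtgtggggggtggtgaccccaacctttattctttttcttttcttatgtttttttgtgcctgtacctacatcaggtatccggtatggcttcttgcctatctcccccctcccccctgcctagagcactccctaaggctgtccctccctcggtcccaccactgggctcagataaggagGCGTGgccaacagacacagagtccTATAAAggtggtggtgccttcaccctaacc
Cyp1b1 (chr17:79715062-79715311, minus strand): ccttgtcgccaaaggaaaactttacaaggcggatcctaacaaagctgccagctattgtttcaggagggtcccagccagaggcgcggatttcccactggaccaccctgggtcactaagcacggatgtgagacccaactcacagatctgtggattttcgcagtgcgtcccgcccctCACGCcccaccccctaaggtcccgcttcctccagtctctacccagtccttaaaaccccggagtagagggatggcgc
Cyp2s1 (chr7:25816526-25816775, minus strand): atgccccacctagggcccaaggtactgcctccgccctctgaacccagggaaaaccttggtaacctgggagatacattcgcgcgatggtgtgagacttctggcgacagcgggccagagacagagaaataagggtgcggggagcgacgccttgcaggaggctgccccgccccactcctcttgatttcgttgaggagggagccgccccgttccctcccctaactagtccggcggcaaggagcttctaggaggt
Cyp2e1 (chr7:140763569-140763818, plus strand): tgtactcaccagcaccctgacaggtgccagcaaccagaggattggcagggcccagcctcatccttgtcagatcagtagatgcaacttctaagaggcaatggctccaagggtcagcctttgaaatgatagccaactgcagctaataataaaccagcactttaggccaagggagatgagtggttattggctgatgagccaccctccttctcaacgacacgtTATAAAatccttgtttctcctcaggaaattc

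The Cyp1a1 window held GCGTG from position -54 and TATAAA from -30 relative to the start. In Cyp1b1 the core lay on the other strand (CACGC as printed, from -76), Cyp2e1 held TATAAA from -31, and the Cyp2s1 window held neither. Promoters were found for 76 members, 22 of which passed the filter. GCGTG was present in 8 of the 22 (36.4%), in 6 of the 54 others (11.1%) and in 28.2% of all 32851 promoters. TATAAA was present in 3 of the 22 (13.6%), in 25 of the 54 others (46.3%) and in 12.4% of all promoters. For each member only the first listed promoter was taken. The shares over all promoters count every listed promoter, so a gene can count there more than once. No promoter was matched for Cyp2g1, Cyp17a1, Cyp2d22, Cyp39a1, Cyp4f17 and Cyp7b1 among those that passed.

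Newborn skin was led by Cyp2b19 and Cyp2g1, and adult skin by Cyp2e1. The summed level of the 99 entries was 200, 206 and 273 RPKM in WT and 218, 243 and 225 RPKM in KO at P1. At P60 it was 241 and 259 RPKM in WT and 473 and 367 RPKM in KO. Both KO libraries at P60 lay above every other library, and no test is given for a sum over the members. With median-of-ratios size factors the group means were 199 and 204 RPKM at P1 and 316 and 477 RPKM at P60 for WT and KO. In each library the top 5 members held 57.0% to 73.5% of the sum.

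**Figure D1:**
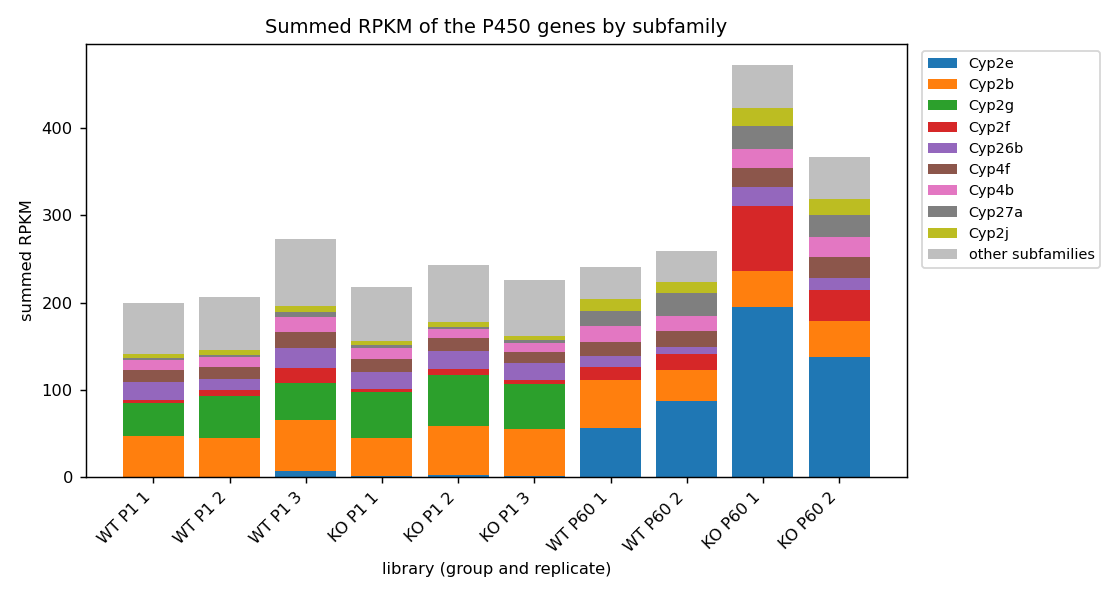
Summed RPKM of the P450 genes in each of the 10 libraries, stacked by subfamily, with the 9 highest subfamilies named and all others in light grey. The Cyp2g layer is seen at P1 and is absent at P60, the Cyp2e layer is the reverse, and KO P60 replicate 1 has the tallest bar (473 RPKM).

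All 28 tested members were called between P1 and P60, 15 higher and 13 lower at P60, in limma. The background was high, since 81.7% of all tested genes were called, 24.3% higher and 57.3% lower. The members had a median difference of 0.45 and all tested genes one of -0.39. With median-of-ratios size factors the median of all genes moved to 0.00, that of the members to 0.80, and 16 members were called higher and 7 lower, against 39.6% and 39.6% of all genes. Directions are therefore read beside that shift of all genes. Libraries of the ages did not overlap for 12 members higher at P60 (16.5% of all tested genes) and 7 lower (50.1%). Cyp2g1 and Cyp3a57 reached 1 RPKM only at P1, and Cyp4f37 and Cyp4f18 only at P60. Such genes entered the test through the age where they were high, so the counts of called and of non-overlapping members are no support for a change of the members. With the sex of the libraries as a term, which rests on KO P1 replicate 2 as the only Xist-low P1 library, 20 members were called, 11 higher and 9 lower, against 61.8% of all genes. The members not called then were Cyp20a1, Cyp26b1, Cyp2b10, Cyp2b19, Cyp2d22, Cyp39a1, Cyp4f16 and Cyp7b1.

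Cell markers moved with age as well. The 5 hair shaft markers summed to 203 to 428 RPKM at P1 and 0.314 to 0.817 RPKM at P60, the 4 melanocyte markers to 167 to 281 and 2.79 to 5.09 RPKM, the 5 mast cell markers to 383 to 626 and 35.9 to 128 RPKM, and the 7 muscle markers to 3324 to 7177 and 15624 to 40451 RPKM. No list but that of adrenal and gonad steroid cells held a marker at 0. The part of these cells in the age differences of the P450 genes was not tested.

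**Figure D2:**
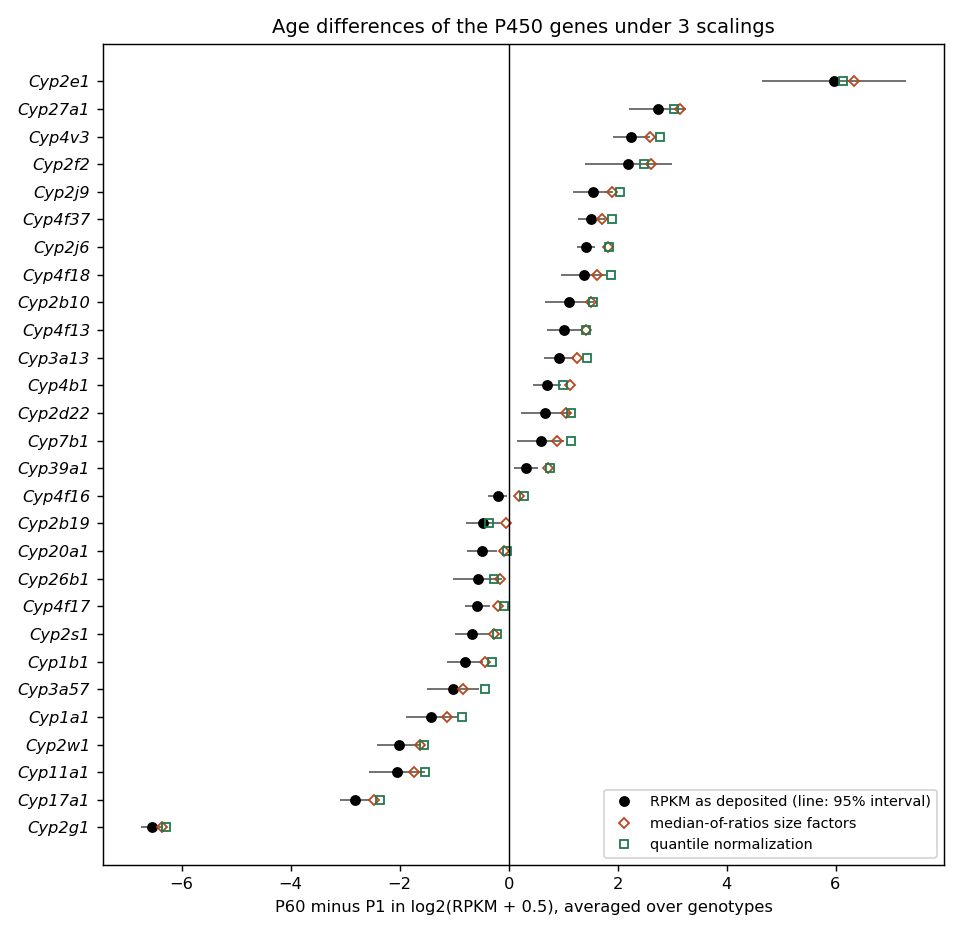
Difference between P60 and P1 in log2(RPKM + 0.5), averaged over genotypes, for the 28 tested members, with filled points and 95% intervals from limma on RPKM as deposited and open symbols for the other scalings. Cyp2g1 stands farthest left at -6.55 and Cyp2e1 farthest right at 5.97, and the open symbols lie to the right of every filled point.

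Cyp2g1, a P450 known from olfactory mucosa, where it oxidises steroids and odorants, went from one of the highest P450 transcripts to near 0. It held 37.3, 48.9 and 42.6 RPKM in WT and 52.7, 58.7 and 51.2 RPKM in KO at P1. The P60 libraries held 0 and 0.0334 RPKM in WT and 0.0405 and 0 RPKM in KO. The ages did not overlap, and KO P1 replicate 2, the Xist-low newborn library, held the highest value of all. Cyp2g1 reached 1 RPKM in P1 libraries only, so it entered the test through the age where it was high. The difference was -6.55 (SE 0.0878, adjusted p = 5.69e-11 in limma). Its size depends on the constant added, being -8.68 with 0.1 and -5.59 with 1. The gene spans 26808892 to 26821205 of chromosome 7 (mm10, plus strand).

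Cyp2e1, which oxidises ethanol and other small molecules, moved the other way. It held 0.229, 0.246 and 6.84 RPKM in WT and 0.907, 2.04 and 1.28 RPKM in KO at P1, against 56.6 and 87 RPKM in WT and 195 and 137 RPKM in KO at P60. All P60 libraries were above all P1 libraries, and WT P1 replicate 3 stood apart from the other newborn libraries. The difference was 5.97 (SE 0.591, adjusted p = 6.38e-06 in limma), and 6.53 without WT P1 replicate 3. Cyp2f2, which in mouse lung activates naphthalene, held 3.86, 6.43 and 17.1 RPKM in WT and 3.76, 6.01 and 5.29 RPKM in KO at P1. Adult skin held 15.5 and 18.9 RPKM in WT and 75.3 and 35.9 RPKM in KO. Here the ages overlapped through WT P1 replicate 3, and the difference was 2.20 (adjusted p = 0.000241 in limma). That library also had the highest muscle marker sum of the P1 libraries (4038, 3324 and 7177 RPKM in WT and 6219, 3709.8 and 4023 RPKM in KO), and the part of cell makeup in its values was not tested.

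A stretch of chromosome 7 from 25802475 to 27158668 (mm10) holds 13 of the members, and 5 of them passed the filter. In order they are Cyp2s1, Cyp2b10, Cyp2b19, Cyp2g1 and Cyp2f2. Cyp2b19 and Cyp2g1 are next to each other in that order, and Cyp2b19 changed far less. Cyp2b19, a keratinocyte enzyme that turns arachidonic acid into epoxides, held 43.7, 39.6 and 56.2 RPKM in WT and 39.7, 52.1 and 49.7 RPKM in KO at P1. At P60 it held 43.5 and 29.5 RPKM in WT and 29 and 33.4 RPKM in KO. The ages overlapped, and its difference of -0.47 (adjusted p = 0.0107 in limma) was -0.04 with median-of-ratios size factors, where it was not called, and it was not called without WT P60 replicate 2 either. Cyp2b10, a target of the xenobiotic receptor Nr1i3 in liver, rose from 2.46–4.62 RPKM at P1 to 5.49–11.5 RPKM at P60 (1.11, adjusted p = 0.000485 in limma). With the sex term its adjusted p was 0.064, and Nr1i3 itself stayed at 0.0113 to 0.1 RPKM.

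The 2 steroid hormone synthesis genes that passed the filter were lower in adult skin, as were 57.3% of all tested genes. Cyp17a1, which makes precursors of androgens and, in humans, of cortisol, held 8.3, 8.99 and 10.3 RPKM in WT and 9.72, 12.9 and 13.3 RPKM in KO at P1. Adult skin held 1.31 and 0.829 RPKM in WT and 0.971 and 1.1 RPKM in KO. The ages were far apart (-2.82, SE 0.122, adjusted p = 3.82e-08 in limma). Cyp11a1, which cuts the side chain of cholesterol as the entry step of steroid synthesis, held 5.36, 4.51 and 7.48 RPKM in WT and 6.5, 3.67 and 2.95 RPKM in KO at P1. At P60 it held 0.444 and 0.703 RPKM in WT and 1.5 and 0.705 RPKM in KO, a difference of -2.06 (SE 0.23, adjusted p = 1.55e-05 in limma). The other enzymes of the pathway were low: Cyp21a1 stood at 0.184 to 0.359 RPKM, aromatase (Cyp19a1) and Cyp11b1 peaked at 0.0609 and 0.00860 RPKM, and Cyp11b2 was listed at 0 throughout.

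Among 7 steroid partner genes listed, 6 were tested, and 4 were lower and 1 higher at P60 (57.3% and 24.3% of all tested genes). Hsd17b2, which inactivates sex steroids, had 8.24 to 11.7 RPKM at P1 and 0.177 to 1.17 RPKM at P60, and fell by 3.32 on the log2 scale. Hsd11b2, which inactivates corticosterone, fell by 2.48, and Hsd3b6, which converts the product of Cyp11a1, fell by 3.00 from 7.95–13 to 0.275–3.1 RPKM. The cholesterol carrier Star stood at 0.832 to 1.09 RPKM at P1 and 0.657 to 0.872 RPKM at P60, and Hsd3b1, of the adrenal gland and gonads, was listed at 0 in every library.

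The 3 aryl hydrocarbon receptor targets that passed were all lower at P60, as were 57.3% of all tested genes. Cyp1a1, the classic dioxin-induced enzyme, held 1.78, 2.93 and 2.01 RPKM in WT and 2.58, 3.5 and 2.74 RPKM in KO at P1. In the P60 libraries it held 0.624 and 0.281 RPKM in WT and 1.42 and 0.485 RPKM in KO (-1.42, SE 0.207, adjusted p = 0.000109 in limma). The ages did not overlap. Cyp1b1, which oxidises estradiol and polycyclic hydrocarbons, went from 3.14–5.44 to 1.74–3.37 RPKM (-0.80), with an overlap. Cyp2s1, an extrahepatic enzyme of retinoid and prostaglandin metabolism, went from 6.6–9.01 to 3.5–5.9 RPKM (-0.67). With quantile normalization Cyp1b1 (-0.31, adjusted p = 0.0592) and Cyp2s1 (-0.21, adjusted p = 0.176) were not called, and Cyp2s1 was not called with size factors either (-0.27, adjusted p = 0.0928). The fourth target, Cyp1a2 of liver, was listed at 0 throughout. The receptor gene Ahr (-0.80) and Tiparp (-0.97), another of its targets, were lower at P60 too, both picked after their values were seen. Of the 21 receptor genes listed 16 were tested, with 4 higher and 10 lower at P60 (24.3% and 57.3% of all tested genes).

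Retinoic acid and vitamin D enzymes were represented by Cyp26b1 and Cyp27a1. Cyp26b1, which breaks down retinoic acid, held 20.3, 12.5 and 22.6 RPKM in WT and 20.2, 21.3 and 19.3 RPKM in KO at P1. At P60 it held 12.4 and 7.48 RPKM in WT and 21.4 and 12.9 RPKM in KO. The ages overlapped, and the difference of -0.57 (adjusted p = 0.0246 in limma) was -0.15 with size factors, where it was not called. It was not called with quantile normalization, without a filter, or without WT P1 replicate 1, WT P60 replicate 2 or KO P60 replicate 2 either. The other retinoic acid hydroxylases, Cyp26a1 and Cyp26c1, peaked at 0.0353 and 0.0397 RPKM. Cyp27a1, a mitochondrial sterol hydroxylase that also makes 25-hydroxyvitamin D, went from 2.29–6.25 RPKM at P1 to 17.2–26.5 RPKM at P60 (2.74, SE 0.232, adjusted p = 2.22e-06 in limma). Cyp2r1, the main vitamin D hydroxylase of liver, stood at 0.176 to 0.709 RPKM and Cyp27b1, which makes active vitamin D, at 0.0511 to 0.349 RPKM. Cyp24a1, which inactivates vitamin D and is induced by its receptor, held 0.366, 0.149 and 0.515 RPKM in WT and 0.927, 0.347 and 0.555 RPKM in KO at P1. At P60 it was listed at 0 in 3 libraries and at 0.00623 RPKM in WT P60 replicate 2, and it was under the filter and so not tested. The vitamin D receptor gene Vdr was at 29.4 to 45 RPKM at P1 and 8.08 to 15.1 RPKM at P60 (-1.56).

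Of the oxysterol and bile acid enzymes, Cyp39a1, a hydroxylase of 24-hydroxycholesterol, stood at 3.94 to 5.83 RPKM at P1 and 5.86 to 6.98 RPKM at P60 (0.32). Cyp7b1, which acts on 25- and 27-hydroxycholesterol, stood at 0.644 to 1.09 and 0.814 to 3.34 RPKM (0.59). Both were called in limma, and neither with the sex term (adjusted p = 0.424 and 0.156). The call of Cyp39a1 ended without WT P60 replicate 1 or KO P60 replicate 2, and that of Cyp7b1 without WT P60 replicate 2 or KO P60 replicate 1. The brain enzyme Cyp46a1 stayed at 0.494 to 0.95 RPKM. Cyp7a1, the rate-limiting enzyme of bile acid synthesis in liver, peaked at 0.00753 RPKM and Cyp8b1 at 0.185 RPKM.

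The subfamilies 2j, 4b, 4f and 4v, a set not listed beforehand, held 9 tested genes of fatty acid and eicosanoid oxidation. Of these, 7 rose and 2 fell, where 24.3% of all tested genes rose and 57.3% fell. With size factors these shares were 39.6% each, and the calls of Cyp4f16 and Cyp4f17 changed. The set leaves out Cyp2b19, which turns arachidonic acid into epoxides and fell (-0.47). The count is no support for a rise of the set, since Cyp4f37 and Cyp4f18 entered through the age where they were high. Cyp4v3, a fatty acid hydroxylase, rose from 0.674–1.64 to 4.93–7.53 RPKM (2.25, SE 0.149, adjusted p = 4.4e-07 in limma). The epoxygenase genes Cyp2j9 (0.935–2.65 to 3.56–6.44 RPKM) and Cyp2j6 (3.25–3.92 to 8.75–12.2 RPKM) rose by 1.54 and 1.42. Within subfamily 4f the directions differed: Cyp4f37 (1.52), Cyp4f18 (1.38), which hydroxylates leukotriene B4, and Cyp4f13 (1.02) rose. Cyp4f37 and Cyp4f18 reached 1 RPKM in P60 libraries only, so they entered the test through the age where they were high, and neither was tested with a filter of 1 RPKM in 4 libraries. Cyp4f17 (-0.57) and Cyp4f16 (-0.20) fell, but with median-of-ratios size factors Cyp4f17 was not called (-0.19) and Cyp4f16 was called higher (0.19). The call of Cyp4f16 also ended without any of the 3 KO P1 libraries, WT P60 replicate 1 or KO P60 replicate 1. Cyp4b1, which oxidises fatty acids and furan toxins, rose from 10.1–16.4 to 17.1–22.2 RPKM (0.70). Of the remaining members with a large change, Cyp2w1, an orphan enzyme, fell from 7.97–16.8 to 1.3–3.94 RPKM (-2.01), and Cyp3a57 from 0.624–1.69 to 0.0779–0.784 RPKM (-1.03). Cyp3a57 reached 1 RPKM in P1 libraries only, was not tested with a filter of 1 RPKM in 4 libraries and was not called with quantile normalization (-0.43, adjusted p = 0.0938).

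**Figure D3:**
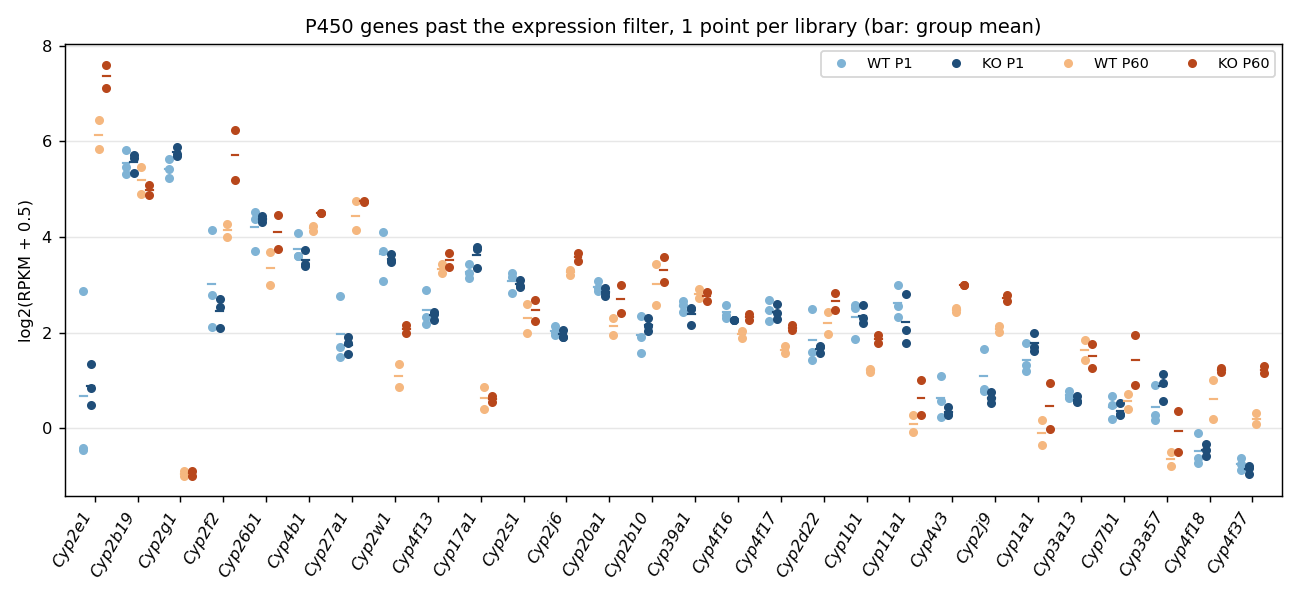
Level of the 28 tested P450 genes as log2(RPKM + 0.5), with 1 point per library and a bar at each group mean, ordered from left to right by the mean RPKM over all libraries. Cyp2e1 and Cyp2g1 separate the ages widest, while the 4 groups of Cyp2b19, Cyp39a1 and Cyp4f16 lie close together.

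KO and WT skin at P1 did not separate in any P450 gene after correction. In limma 0 of 28 members were called at P1 (0% of all tested genes). An unadjusted p under 0.05 was held by 2 members and by 130 of the 14026 tested genes. With array weights 2 members were called (0.185% of all tested genes). These were the same 2 genes, Cyp2g1 and Cyp17a1. The mean of Cyp2g1 was 42.9 ± 5.84 RPKM for WT and 54.2 ± 3.99 RPKM for KO (SD, n = 3 each), all KO libraries above all WT libraries, with a difference of 0.34 (95% interval 0.09 to 0.59, adjusted p = 1 in limma). Cyp17a1 had 9.19 ± 1 and 12 ± 1.97 RPKM (SD, n = 3 each), with an overlap and a difference of 0.36 (95% interval 0.01 to 0.70). With array weights they stood at 0.56 and 0.57, both with an adjusted p of 0.0343. The third by p, Cyp2j9, had 1.26, 1.23 and 2.65 RPKM in WT and 0.935, 1.18 and 1.06 RPKM in KO, a difference of -0.45 (adjusted p = 1 in limma). Genotypes were apart for 1 member higher in KO, Cyp2g1 (2.08% of all tested genes), and for 2 lower, Cyp2j9 and Cyp4f16 (2.48%).

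In adult skin most P450 genes stood higher in KO, with 1 called. At P60, 24 of 28 members (22 with quantile normalization) had a difference above 0, with a median of 0.49 against 0.13 over all tested genes. Both KO libraries lay above both WT libraries for 18 members (64.3%), where this held for 42.7% of all tested genes, and 0 members lay below (18.8% of all). A gene that passed the filter only through its KO P60 libraries had to differ, as for Cyp4f37, so these counts are no support for a difference of the members. In limma an unadjusted p under 0.05 was held by 12 of the 28 members and by 4496 of the 14026 tested genes. After correction 1 member was called, and it rose (8.21% of all tested genes rose and 2.91% fell). With size factors the same gene was called and the median of all genes moved from 0.13 to 0.00, with 3.49% of them higher and 7.07% lower. The authors' deposited table listed p under 0.05 for 1 of 77 members at P60 (1.30%) and for 7.13% of its genes, and for 0 members at P1 against 1.37%.

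The member called was Cyp4f37, a gene of subfamily 4f, whose members hydroxylate fatty acids. It held 0.738 and 0.559 RPKM in WT and 1.72 and 1.96 RPKM in KO at P60, and 0.0158 to 0.147 RPKM at P1. It reached 1 RPKM in the KO P60 libraries only, so it entered the test through the group where it was high and had to differ; with a filter of 1 RPKM in 4 libraries it was not tested. The difference at P60 was 1.03 (SE 0.175, adjusted p = 0.0278 in limma, n = 2 each). The call ended with 0.1 added in place of 0.5 (adjusted p = 0.0521 in limma), with quantile normalization (0.0562) and without KO P1 replicate 2 or 3 or the first replicate of WT P1, WT P60 or KO P60, where adjusted p ran from 0.0515 to 0.205. The authors' deposited table put KO at 2.61 times WT (unadjusted p = 0.0586).

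Next by p stood Cyp2w1, with 1.3 and 2.03 RPKM in WT and 3.48 and 3.94 RPKM in KO (0.98, SE 0.281, adjusted p = 0.0531 in limma). Cyp4f16 followed with 3.2 and 3.59 RPKM in WT and 4.33 and 4.7 RPKM in KO (0.37, adjusted p = 0.0712 in limma). Neither passed, although the genotypes did not overlap. With 0.1 added in place of 0.5 Cyp2w1 was called (adjusted p = 0.0438 in limma). Cyp4f16 was the member with an unadjusted p under 0.05 at P60 in the authors' deposited table (0.00366). The widest gaps in level were those of the adult genes Cyp2e1, at 71.8 ± 21.5 RPKM in WT and 166 ± 40.4 RPKM in KO, and Cyp2f2, at 17.2 ± 2.46 and 55.6 ± 27.8 RPKM (SD, n = 2 each). Their differences of 1.22 (95% interval -0.83 to 3.27) and 1.58 (95% interval 0.33 to 2.82) did not pass in limma (adjusted p = 0.391 and 0.0878).

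The spread in this fit is shared by all groups, so the newborn library WT P1 replicate 3 bears on the P60 result. Without WT P1 replicate 3, 8 members were called at P60, all higher in KO: Cyp2e1, Cyp2f2, Cyp2j9, Cyp2w1, Cyp4f16, Cyp4f17, Cyp4f37 and Cyp4v3. Calls over all tested genes went from 11.1% to 17.4% in the same fit. Adjusted p for Cyp2e1 was then 0.0326 and for Cyp2f2 0.0285, in limma, with the differences as before. Without KO P60 replicate 2, 3 were called, Cyp4f37, Cyp20a1 and Cyp7b1 (14.9% of all tested genes), and without WT P1 replicate 2, Cyp4f37 and Cyp2w1 (7.71%). The fit with the sex of the libraries as a term called 0 members and 0% of all genes at P60. All P60 libraries were low in Xist, so that term cannot adjust a difference at P60, and the median of the members stayed at 0.49. The term only sets KO P1 replicate 2 apart, and the fit without that library also called 0% of all genes at P60.

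**Figure D4:**
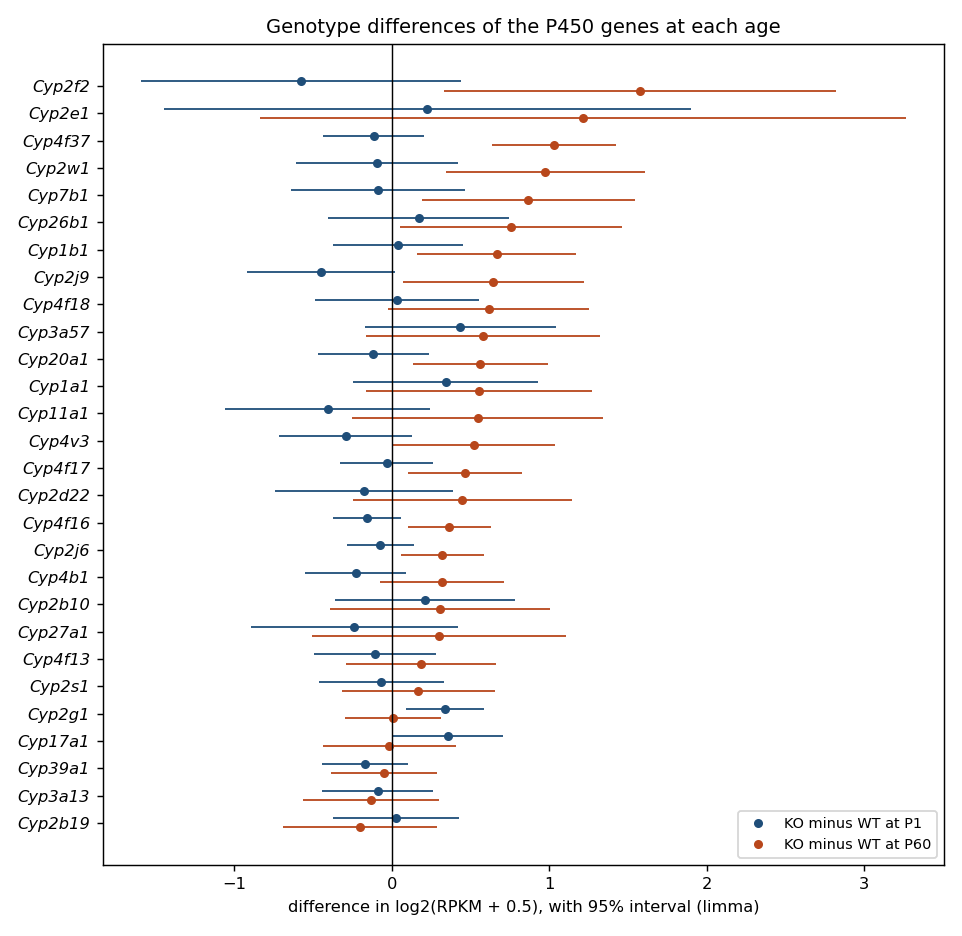
Difference between KO and WT in log2(RPKM + 0.5) for the 28 tested P450 genes at P1 and at P60, with 95% intervals from limma, ordered by the value at P60. The P60 points lie to the right of 0 for 24 genes, with Cyp2f2 at 1.58 farthest, while the P1 points lie on both sides of 0.

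Sums of some cell markers stood apart between the genotypes at P60 too, and those of others overlapped. Of all tested genes 42.7% lay higher in both KO libraries than in both WT libraries at P60, and 18.8% lay lower. Fibroblast markers, all 6 detected and none at 0, summed to 4249.6 and 5270 RPKM in WT and 23119 and 9561 RPKM in KO at P60. The 6 macrophage and dendritic cell markers summed to 181 and 233 RPKM in WT and 548 and 396 RPKM in KO, and the 7 muscle markers to 36242 and 40451 RPKM in WT and 15624 and 26472 RPKM in KO. KO P60 replicate 1 thus had the highest fibroblast and macrophage sums and the lowest muscle sum of the P60 libraries. It also had the highest Cyp2e1, Cyp2f2, Cyp26b1 and Cyp7b1 of them. For other members KO P60 replicate 2 was the highest P60 library. Among them were Cyp4f37 (1.96 against 1.72 RPKM in KO P60 replicate 1), Cyp2w1 (3.94 against 3.48 RPKM), Cyp4f16 (4.7 against 4.33 RPKM) and Cyp2j9 (6.44 against 5.82 RPKM). The 8 sebaceous gland markers summed to 34.1 and 14.7 RPKM in WT and 69.4 and 26.1 RPKM in KO, with an overlap. Basal keratinocyte markers overlapped too, at 4554 and 3523 RPKM in WT and 3826 and 4351 RPKM in KO. White adipocyte markers, at 501 and 1113 RPKM in WT and 908 and 1216 RPKM in KO, also overlapped, as did hair shaft, melanocyte and hepatocyte markers. Mast cell markers (5 genes) summed to 35.9 and 49.9 RPKM in WT and 128 and 73.7 RPKM in KO, suprabasal keratinocyte markers (5 genes) to 4413 and 3893 RPKM in WT and 5267 and 4859 RPKM in KO, and endothelial markers (4 genes) to 44.8 and 48.4 RPKM in WT and 54.1 and 51.2 RPKM in KO, all higher in both KO libraries. The sum of the 4 adrenal and gonad markers was lower in both KO libraries, at 5.2 and 8.5 RPKM in WT and 4.25 and 4.98 RPKM in KO. Of these markers Insl3 was lower in both (-0.57, adjusted p = 0.461 in limma), and Star overlapped (0.06). Hsd3b1 was listed at 0, and Nr5a1 stayed under 1 RPKM. The part of these markers in the P450 values was not tested.

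Averaged over the ages, 0 of 28 members were called in limma (0.00713% of all tested genes). An unadjusted p under 0.05 was held by 5 members and by 2820 of the 14026 tested genes. The members of smallest p were Cyp4f37 (0.46, adjusted p = 0.157), Cyp2w1 (0.44, adjusted p = 0.221) and Cyp1b1 (0.35, adjusted p = 0.222). The genotype effects at P60 and P1 did not differ after correction in any member (0% of all tested genes). Here 11 members and 3214 of the 14026 tested genes had an unadjusted p under 0.05 in limma. With array weights 1 member, Cyp4f37, was called (3.32% of all tested genes). In the reported fit Cyp4f37 had the smallest p of the members (1.14, SE 0.226, adjusted p = 0.105 in limma). For Cyp4f16 the difference of effects was 0.52 (adjusted p = 0.119) and for Cyp2j9 1.09 (adjusted p = 0.124). Without KO P60 replicate 2 this test called 2 members, Cyp20a1 and Cyp7b1 (5.59% of all tested genes), and that of the average called Cyp7b1 (4.16%).

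The genes that serve the P450 enzymes gave calls at P60 whose direction depended on the scaling. Of 74 electron transfer, heme, receptor, conjugation and steroid partner genes 68 were tested, and 8 rose and 3 fell in KO at P60 (8.21% and 2.91% of all tested genes), with a median of 0.18 against 0.13 over all genes. With median-of-ratios size factors 9 were called, 1 higher and 8 lower in KO (3.49% and 7.07% of all tested genes), and 4 of them were among the former 11, namely Por, Cyb5r1, Gstp1 and Uros. Por, which feeds electrons to all microsomal P450 enzymes, held 29.5 and 39.1 RPKM in WT and 75.6 and 51.4 RPKM in KO (0.87, SE 0.2, adjusted p = 0.0358 in limma, and 0.0498 with size factors). Of the 10 electron transfer genes 4 rose on RPKM as deposited, Por, Pgrmc1 (0.52), Pgrmc2 and Cyb5a, which bind or aid P450 enzymes, and 1 fell, Cyb5r1 (-0.65). Pgrmc1, Pgrmc2 and Cyb5a were not called with size factors (adjusted p = 0.107 for Pgrmc1). Mgst1, a membrane glutathione transferase (0.75), and Hsd11b1, which regenerates corticosterone (0.95), rose on RPKM as deposited but were not called with size factors (adjusted p = 0.0663 and 0.0598). Gstp1, a glutathione transferase (-0.53), and Uros, an enzyme of heme synthesis (-0.45), fell with both scalings. Of the 12 heme genes 1 rose, Cpox, which was not called with size factors, and 1 fell. With quantile normalization 0 of the 68 were called (0.392% of all tested genes). The count was 13 without WT P1 replicate 3 (17.4% of all tested genes) and 4 without WT P1 replicate 2 (7.71%). It was 1 when KO P1 replicate 1 was left out (4.49%). Leaving out WT P1 replicate 1 gave 0 (0.0214% of all tested genes). The same count came from leaving out replicate 2 (0%) or 3 (0.207%) of KO P1. At P1, averaged over ages and in the difference of effects 0 of the 68 were called in limma, with 1, 17 and 21 at an unadjusted p under 0.05. Over all 14026 tested genes these counts were 130, 2820 and 3214.

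Between the ages, 57 of the 68 were called, 28 higher and 29 lower at P60, or 83.8% against 81.7% of all tested genes. With median-of-ratios size factors 35 were called higher and 17 lower (39.6% and 39.6% of all tested genes). With quantile normalization 33 were higher and 24 lower (37.5% and 40.2%). With the sex term 44 were called, 22 higher and 22 lower (61.8% of all tested genes called). In the list of conjugation and epoxide hydrolysis, which handles the products of P450 enzymes, 13 of 22 rose and 8 fell (24.3% and 57.3% of all tested genes). Aldh3a1, an aldehyde dehydrogenase (1.58–2.79 to 17.5–44 RPKM), rose by 3.25, the glutathione transferase gene Gstm1 by 2.36, the epoxide hydrolase gene Ephx1 by 1.93 and Gstp1 by 1.45. The glucuronosyltransferase gene Ugt1a6a (-1.84), whose reads can overlap those of other Ugt1a genes, and the cholesterol sulfotransferase gene Sult2b1 (-1.14) fell. The P450 genes under other symbols were Tbxas1, thromboxane synthase, which rose by 0.75 (adjusted p = 0.109 with the sex term), and Ptgis, prostacyclin synthase, which stood at 2.9 to 5.06 RPKM at P1 and 2.11 to 5 RPKM at P60.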

How the data were processed

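Total RNA of dorsal skin was sequenced in 10 libraries in 4 groups, prepared with NEBNext and NuGen kits, per the labels' protocols. Reads were aligned to mm10 with TopHat2 2.1.0 and RPKM calculated in Partek, per the submitters' processing notes and the file headers; the sources used here give no Partek version and no annotation. The authors deposited RPKM per gene, unadjusted p-values and a linear ratio of KO over WT from their analysis of variance, of which no model is stated, and a count of alignments for each library. The values are no read counts, so the precision of low values cannot be set from them, and values far below what 1 read could give occur among close copies.

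A linear model in limma 3.58.1 (R 4.3.3), with 4 group means and a variance trend, was fitted to log2(RPKM + 0.5) of genes that reached 1 RPKM in 2 or more libraries. The spread is pooled over the groups, and p-values measure the spread between these samples. The labels name no litters or cultures, and replicate numbers were not taken as pairs. Members and lists were chosen with earlier results of these data known. Named were the called members or the 3 of smallest p per genotype contrast, the 10 largest age changes in each direction, the 10 highest levels, the 3 members on each side of the filter, the members of 5 role lists, and of the partner list the 4 of smallest p per direction among called genes. Other members and genes with values were picked after their values were seen. Positions of 97 members came from GENCODE M21 and promoters from RefSeq. The fit was tested on simulated data. Alternatives were another constant, filter, scaling and weighting, a replicate block, each library left out, and, chosen after seeing the data, a sex term.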

Additional observations from a re-analysis of the deposited data

Results flagged for a closer look

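In 2 of 28 members (7.14%) the KO libraries lay below the WT libraries at P1 and above them at P60, an order found in 1.21% of all tested genes. For Cyp2j9 the difference of the genotype effects was 1.09 on the log2 scale (SE 0.331). For Cyp4f16 it was 0.52 (SE 0.153). Tested in limma over all genes, neither difference passed (adjusted p = 0.124 and 0.119), and the cause was not tested. No group held enough libraries for a test of outlying values.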

How the results depend on the processing

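Of the counts of called members, 28 at P60 against P1 stayed between 20 and 33 under every alternative run. At P1 the count of 0 members was 2 with array weights (0.185% of all tested genes). At P60 the count of 1 member was 0 with a filter of 1 RPKM in 4 libraries and with quantile normalization. It was also 0 with the replicate block and with the sex term, and 0 to 8 with a P1 library left out. All P60 libraries were low in Xist, so the sex term cannot adjust a difference at P60. Averaged over ages the count was 0 to 1 with a library left out. For the difference of effects it was 1 with array weights (3.32% of all tested genes) and 0 with each P1 library left out. The partner genes at P60, 11 in the reported fit, numbered 1 without a filter, 0 with quantile normalization, 2 with array weights, 7 without a variance trend, 0 with the replicate block, 0 with the sex term, and 0 to 18 with a library left out. Averaged over ages they numbered 0 to 3 with a library left out, and for the difference of effects 3 with array weights and 0 to 6 with a library left out. With median-of-ratios size factors the mean summed P450 level at P1 went from 226 to 199 RPKM in WT and from 229 to 204 RPKM in KO. At P60 it went from 250 to 316 RPKM in WT and from 420 to 477 RPKM in KO. Among the gene differences that the text gives with their alternatives, that of Cyp4f16 between the ages changed sign, from -0.20 to 0.28 with quantile normalization and 0.19 with size factors. Members with a genotype difference above 0 went from 24 to 22 at P60, from 25 to 20 averaged over ages and from 24 to 20 in the difference of effects with quantile normalization, so other members changed sign there. The replicate numbers are only labels: same-numbered samples correlated in their deviations at -0.166, 0.244 and -0.259 at P1 and 0.236 at P60, and the replicate block took the calls over all tested genes at P60 from 1560 to 2. The causes of these changes were not tested. The 95% interval of a genotype difference had a median half-width of 0.42 over the members at P1 and of 0.51 at P60.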
